A study of Mus musculus with 16 samples.

Results

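A set of 9 genes of retinoid synthesis and handling was followed across 4 populations sorted from mouse colon as fibroblasts: Aldh1a1, Aldh1a2, Aldh1a3, Adh1, Rdh10, Rbp4, Crabp1, Crabp2 and Rarb. Every probe set whose only gene symbol in the platform table was one of these 9 genes was taken. That gave 10 probe sets of 8 genes, out of 45141 probe sets and 17097 named genes on the array. Aldh1a3 had 3 probe sets and the other genes had 1 each. Rarb, a retinoic acid receptor, had no probe set carrying its symbol alone and is not analysed here.

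Retinoic acid is made from vitamin A in successive oxidations. Retinol circulates bound to the carrier Rbp4, is oxidized to retinal by dehydrogenases such as Rdh10 and Adh1, and retinal is oxidized irreversibly to retinoic acid by the retinaldehyde dehydrogenases Aldh1a1, Aldh1a2 and Aldh1a3. Crabp1 and Crabp2 bind retinoic acid in the cytoplasm, and nuclear receptors of the Rar and Rxr families carry its signal to target genes. In the gut, retinoic acid is known for its part in lymphocyte homing and tolerance, and epithelium, dendritic cells and stromal cells can all make it.

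The cells came from C57BL/6 mice carrying Gli1CreERT2-ZsGreen, in which a tamoxifen-activated Cre driven from Gli1, a transcription factor of Hedgehog signalling, turns on the fluorescent protein ZsGreen. Every mouse, in every population, had received 1 mg tamoxifen into the peritoneum on 5 consecutive days and was killed on day 6. Cells of the colon that were Epcam-, CD45- and CD31- and positive for gp38 were divided by reporter brightness and by Sca1, a surface protein, into Sca1+ ZsGreen-high, Sca1+ ZsGreen-dim, Sca1+ ZsGreen-negative and Sca1- ZsGreen-negative cells. Each population was measured on 1 array for each of 4 mice, the same 4 by their labels, 16 arrays in all, from 2 ng of RNA. The brightness records labelling by Cre and need not follow Gli1 at the time of the sort, and no ages are stated in the labels.

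For the enzyme, the carrier and the dehydrogenase that the results turn on, the 250 bases before the annotated start are shown to set the upstream sequences of genes with different patterns side by side. They are from RefSeq, build GRCm38.p6, which held entries for 6 of the 9 genes. Capitals mark TATAAA, the core of a TATA box. The motifs AGGTCA and AGTTCA, which are retinoic acid receptor half-sites, and TATAAA were searched on both strands and do not overlap one another in these windows.
Aldh1a2, chr9:71215539-71215788, plus strand: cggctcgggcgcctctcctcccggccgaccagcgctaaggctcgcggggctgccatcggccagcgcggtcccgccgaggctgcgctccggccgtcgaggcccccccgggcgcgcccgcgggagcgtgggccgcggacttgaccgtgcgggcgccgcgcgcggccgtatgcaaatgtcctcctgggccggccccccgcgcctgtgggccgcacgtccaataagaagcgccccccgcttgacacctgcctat
Rbp4, chr19:38124812-38125061, minus strand, the start of the 2 annotated that holds the motif: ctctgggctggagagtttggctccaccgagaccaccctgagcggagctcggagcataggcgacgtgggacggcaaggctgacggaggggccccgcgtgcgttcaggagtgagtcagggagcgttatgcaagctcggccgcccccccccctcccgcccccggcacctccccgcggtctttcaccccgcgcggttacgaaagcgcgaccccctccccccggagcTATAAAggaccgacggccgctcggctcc
Adh1, chr3:138277335-138277584, plus strand: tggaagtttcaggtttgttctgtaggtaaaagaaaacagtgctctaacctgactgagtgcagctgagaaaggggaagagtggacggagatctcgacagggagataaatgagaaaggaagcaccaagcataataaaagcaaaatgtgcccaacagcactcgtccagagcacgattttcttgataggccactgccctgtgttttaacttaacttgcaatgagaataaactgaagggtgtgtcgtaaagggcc
The Aldh1a2 window was 77.6% G+C, the Rbp4 window shown 70.8% and the Adh1 window 44.8%. TATAAA began at position -28 from the Rbp4 start shown and was not in the Aldh1a2 or Adh1 window, and neither receptor motif was in any of the 3. The window of the other Rbp4 start was 40.8% G+C and held none of the motifs. Both the place of Rbp4 in the G+C order and its TATAAA therefore depend on the start taken. Of 32851 windows of 250 bases in the same table, 14.0% held AGGTCA, 11.8% held AGTTCA and 12.4% held TATAAA. The match is a description of these letters and was not set against any binding data.

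Values below are array signals on a linear scale, and they include array background, which makes the differences of dim genes too small. Differences are log2 ± SE between means of 4 arrays, from limma on all 16 arrays, with p-values adjusted by Benjamini-Hochberg over 17097 genes and a threshold of 0.05. Probe sets differ in how brightly they bind, so signals are not compared between genes. In bulk samples such as these, fewer cells of a type and less RNA per cell cannot be told apart. The number of arrays limits the precision.

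Gli1 averaged 2611 ± 321 in ZsGreen-high, 2323 ± 322 in ZsGreen-dim, 1104 ± 299 in Sca1+ ZsGreen-negative and 921 ± 318 in Sca1- ZsGreen-negative cells (SD, n = 4 each), in the order of the sort gates. Array medians lay between 662 and 687 and log2 signals of arrays of the same population correlated at 0.968 to 0.994. Signals of Xist and Eif2s3y were of male type on 6 arrays and of female type on 10. The arrays labelled mouse 2 were male in the ZsGreen-high and ZsGreen-dim populations and female in both ZsGreen-negative populations, so they cannot all be from 1 animal. Counts of mice below go by the labels, and each called difference of the 8 genes is given also without mouse 2, and those of further genes where leaving it out ended the call. The mean log2 signal of 8 fibroblast genes was 14.12 ± 0.11 in ZsGreen-high, 14.02 ± 0.13 in ZsGreen-dim, 13.57 ± 0.23 in Sca1+ and 13.14 ± 0.45 in Sca1- ZsGreen-negative cells (SD, n = 4). Epithelial genes were present in spite of the Epcam- gate. Epcam ran from 1698 to 6869 in ZsGreen-high, from 6249 to 13623 in ZsGreen-dim, from 12855 to 20560 in Sca1+ ZsGreen-negative and from 10080 to 21786 in Sca1- ZsGreen-negative cells. A list of 18 colon epithelium genes, 17 of them measured, had a mean log2 signal that was 11.90 ± 0.87, 13.48 ± 0.48, 14.19 ± 0.30 and 14.20 ± 0.44 (SD, n = 4) in the same order of populations, with 17 of 17 lower in ZsGreen-high than in either ZsGreen-negative population. The lowest and highest arrays had 11.08 and 13.05 in ZsGreen-high, 13.01 and 14.02 in ZsGreen-dim, 13.78 and 14.48 in Sca1+ ZsGreen-negative, and 13.55 and 14.56 in Sca1- ZsGreen-negative cells. In ZsGreen-high against Sca1+ ZsGreen-negative cells, 7 of 8 endothelium genes were also lower and 1 higher. In the same comparison 4 of 6 mesothelium, 3 of 8 leukocyte and 2 of 3 interstitial cell of Cajal genes were lower. Higher there were 5 of 7 smooth muscle and 3 of 8 fibroblast genes, and 0 of 3 enteric glia genes were called. The 3' to 5' ratio of the Actb control was 1.24 ± 0.03 against 1.11 ± 0.01 (SD, n = 4). A fit with the epithelial mean as a covariate is given below. The part of the other marker lists and of the Actb ratio in the results was not tested.

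The ZsGreen-high cells set against Sca1+ ZsGreen-negative cells showed higher Rbp4, Rdh10 and Aldh1a1 and lower Adh1. Of the 8 measured genes 4 were called, 3 higher and 1 lower, where 30.9% of all genes were called in that comparison, 17.0% higher and 13.9% lower. The median log2 difference was 0.097 over the 8 genes and -0.0020 over all genes. Against Sca1- ZsGreen-negative cells, 4 of 8 were also called in ZsGreen-high cells, 3 higher and 1 lower (35.9% of all genes, 19.2% higher and 16.7% lower), with Aldh1a2 in place of Aldh1a1. In ZsGreen-dim against Sca1- cells 4 of 8 were called (13.9% of all genes, 7.96% higher and 5.89% lower), all 4 higher: Aldh1a2, Aldh1a3, Rdh10 and Rbp4. Between the ZsGreen-negative populations 1 of 8, Aldh1a2, was called and was higher, where 2.45% of all genes were called, 1.22% higher and 1.23% lower. None of the 8 was called by limma in ZsGreen-dim against Sca1+ ZsGreen-negative cells (1.51% of all genes, 0.901% higher and 0.608% lower) or in ZsGreen-high against ZsGreen-dim cells (1.42% of all genes, 0.485% higher and 0.930% lower), although 2 and 3 of them had an unadjusted p under 0.05. The median log2 difference over the 8 genes was 0.25 in ZsGreen-high and 0.44 in ZsGreen-dim against Sca1- cells, 0.28 between the ZsGreen-negative populations, 0.10 in ZsGreen-dim against Sca1+ ZsGreen-negative and 0.13 in ZsGreen-high against ZsGreen-dim cells, while that over all genes lay between -0.016 and 0.0089. These comparisons share arrays with one another. In the F test over the 4 populations, where 32.3% of all genes passed, Aldh1a2, Adh1, Rdh10 and Rbp4 passed.

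**Figure D1:**
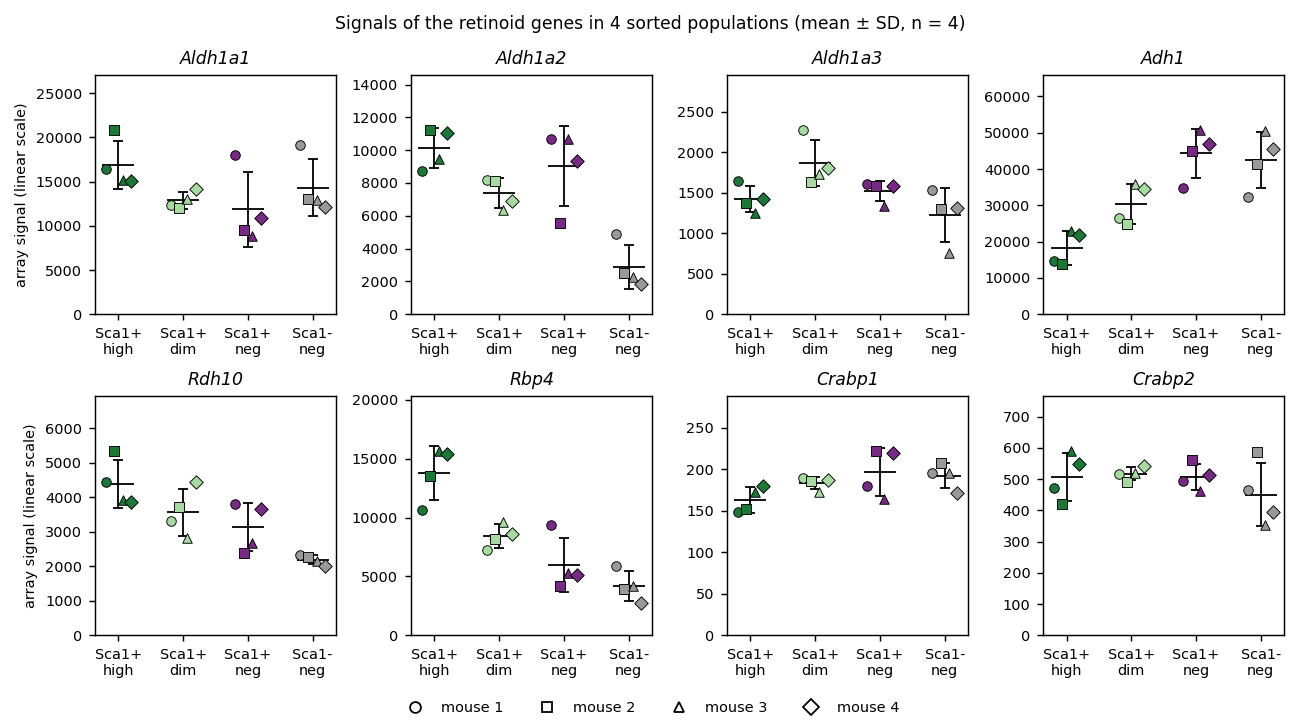
Array signal (linear scale, arbitrary units) of the 8 measured retinoid genes in the 4 sorted populations; each point is 1 array, its shape gives the mouse, and lines give the mean and SD (n = 4). Adh1 lies between 13942 and 22870 in ZsGreen-high cells, below every other array, and Aldh1a2 lies between 1841 and 4863 in Sca1- ZsGreen-negative cells, below every other array.

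Rbp4, the plasma carrier of retinol, had 10658, 13551, 15665 and 15388 in ZsGreen-high cells of mice 1 to 4. It had 7235, 8215, 9629 and 8630 in ZsGreen-dim cells, 9349, 4230, 5309 and 5081 in Sca1+ ZsGreen-negative cells and 5852, 3969, 4180 and 2744 in Sca1- ZsGreen-negative cells. Every ZsGreen-high array was above every array of the other populations, and the Sca1+ ZsGreen-negative array of mouse 1 stood above the other 3 of its population. Rbp4 averaged 13816 ± 2305 in ZsGreen-high cells and 5992 ± 2286 in Sca1+ ZsGreen-negative cells (SD, n = 4 each), a log2 difference of 1.26 ± 0.24 (2.39-fold, adjusted p = 0.00122, higher in 4 of 4 mice; 1.12 and adjusted p = 0.0309 without mouse 2). Against the 4186 ± 1278 of Sca1- ZsGreen-negative cells the difference was 1.76 ± 0.24 (3.38-fold, adjusted p = 7.33e-05; 1.75 and adjusted p = 0.00373 without mouse 2).
Reporter-dim cells, at 8427 ± 992, were above Sca1- cells by 1.05 ± 0.24 (2.08-fold, adjusted p = 0.00863, higher in 4 of 4 mice), a call lost without mouse 2 (adjusted p = 0.0832), mouse 3 (adjusted p = 0.0668) or mouse 4 (adjusted p = 0.106). Neighbours in the order of the means did not differ past the threshold: the difference was 0.70 ± 0.24 between ZsGreen-high and ZsGreen-dim cells (adjusted p = 0.139), and 0.55 ± 0.24 between ZsGreen-dim and Sca1+ ZsGreen-negative cells (adjusted p = 0.193). Both were called without mouse 1, at 0.75 (adjusted p = 0.0280) and 0.86 (adjusted p = 0.0061), and the second also without only the Sca1+ ZsGreen-negative array of mouse 1 (0.79, adjusted p = 0.0356) and on the female arrays alone (0.91, adjusted p = 0.0188). The first was also called with only the 8 arrays compared (adjusted p = 0.0380) and with scaling to the hybridization controls (1.00, adjusted p = 0.0089).

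Rdh10, which makes retinal from retinol in many embryonic and adult tissues, had 4449, 5338, 3907 and 3848 in ZsGreen-high cells. The signals were 3311, 3703, 2804 and 4428 in ZsGreen-dim, 3797, 2397, 2669 and 3647 in Sca1+ ZsGreen-negative and 2331, 2266, 2159 and 2008 in Sca1- ZsGreen-negative cells. All 12 Sca1+ arrays were above all 4 Sca1- arrays. Rdh10 averaged 4386 ± 690 in ZsGreen-high cells and 2191 ± 141 in Sca1- cells (SD, n = 4 each), a log2 difference of 0.99 ± 0.16 (1.99-fold, adjusted p = 0.000268; 0.91 and adjusted p = 0.0056 without mouse 2). In ZsGreen-dim cells, at 3562 ± 685, it was higher than in Sca1- cells by 0.68 ± 0.16 (1.61-fold, adjusted p = 0.0116), a call lost without mouse 2 (adjusted p = 0.0613) or mouse 4 (adjusted p = 0.116). The difference between Sca1+ and Sca1- ZsGreen-negative cells was 0.49 ± 0.16 (adjusted p = 0.166), although their arrays did not overlap. Reporter-high cells were above the 3128 ± 698 of Sca1+ ZsGreen-negative cells by 0.50 ± 0.16 (1.42-fold, adjusted p = 0.0276, higher in 4 of 4 mice), a call lost without mouse 2 (0.29, adjusted p = 0.301) or mouse 3 (adjusted p = 0.0766), without the ZsGreen-high array of mouse 1 or 2 or the Sca1+ ZsGreen-negative array of mouse 2 or 3 (adjusted p from 0.0634 to 0.0985), on the female arrays alone (adjusted p = 0.157) and with only the 8 arrays compared (adjusted p = 0.0511).

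Adh1, a cytosolic alcohol dehydrogenase that also takes retinol and is abundant in liver and gut epithelium, ran the other way. It had 14541, 13942, 22870 and 21898 in ZsGreen-high cells and 26451, 24960, 35800 and 34551 in ZsGreen-dim cells. It had 34892, 44843, 50811 and 46911 in Sca1+ ZsGreen-negative cells and 32285, 41290, 50538 and 45479 in Sca1- ZsGreen-negative cells. The ZsGreen-high arrays lay below all others, and within each of the 4 populations mice 3 and 4 had higher signals than mice 1 and 2. Adh1 averaged 18313 ± 4724 in ZsGreen-high cells and 44364 ± 6782 in Sca1+ ZsGreen-negative cells (SD, n = 4 each), a log2 difference of -1.30 ± 0.19 (0.406-fold, adjusted p = 0.000328, lower in 4 of 4 mice; -1.17 and adjusted p = 0.0128 without mouse 2). Against the 42398 ± 7730 of Sca1- cells it was -1.23 ± 0.19 (0.427-fold, adjusted p = 0.000186; -1.12 and adjusted p = 0.00727 without mouse 2).
Reporter-dim cells averaged 30441 ± 5525, between the other populations. The difference was -0.75 ± 0.19 for ZsGreen-high against ZsGreen-dim cells (adjusted p = 0.0637; 0.000401 with mouse as a block). It was -0.55 ± 0.19 for ZsGreen-dim against Sca1+ ZsGreen-negative cells (adjusted p = 0.128; 0.00392 with the block) and -0.48 ± 0.19 against Sca1- cells (adjusted p = 0.114; 0.00287 with the block). The block treats the arrays labelled mouse 2 as 1 animal. Without the block, ZsGreen-high against ZsGreen-dim was called with sex as a covariate (adjusted p = 1.65e-05) and on the female arrays alone (-0.65, adjusted p = 0.0167). So was ZsGreen-dim against Sca1+ ZsGreen-negative (adjusted p = 0.00579 with sex, and -0.43 and 0.0470 on the female arrays). Neither was called without mouse 2 (adjusted p = 0.274 and 0.495).

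Aldh1a2, the main retinaldehyde dehydrogenase of embryonic mesoderm and a known product of stromal and mesothelial cells, had 8707, 11239, 9479 and 11026 in ZsGreen-high cells and 8211, 8149, 6359 and 6889 in ZsGreen-dim cells. It had 10674, 5534, 10653 and 9323 in Sca1+ ZsGreen-negative cells and 4863, 2493, 2272 and 1841 in Sca1- ZsGreen-negative cells. The 12 Sca1+ arrays lay above the 4 Sca1- arrays without overlap, while the 3 Sca1+ populations overlapped in part. Aldh1a2 averaged 9046 ± 2425 in Sca1+ and 2867 ± 1358 in Sca1- ZsGreen-negative cells (SD, n = 4 each), a log2 difference of 1.71 ± 0.26 (3.28-fold, adjusted p = 0.00131, higher in 4 of 4 mice). The difference was 1.90 without mouse 2 (adjusted p = 0.012), and the call was lost without mouse 4 (adjusted p = 0.0577) and with only the 8 arrays of these populations in the fit (adjusted p = 0.0586).
Against the same Sca1- arrays, ZsGreen-high cells, at 10113 ± 1222, were higher by 1.91 ± 0.26 (3.77-fold, adjusted p = 7.11e-05; 1.83 and adjusted p = 0.00273 without mouse 2). Reporter-dim cells, at 7402 ± 924, were higher by 1.46 ± 0.26 (2.76-fold, adjusted p = 0.0018; 1.38 and adjusted p = 0.0272 without mouse 2). None of the 3 differences among Sca1+ populations had an unadjusted p under 0.05.
Markers of 2 other cell types moved with the Sca1 gate. All 3 measured enteric glia genes, of 4 listed, were lower in Sca1+ than in Sca1- ZsGreen-negative cells (median log2 difference -1.49), as were all 3 genes of interstitial cells of Cajal (median -1.46), whereas 0 of 8 fibroblast genes were called (median 0.48). Against Sca1- cells, 7 of 8 fibroblast genes were higher in ZsGreen-high and 6 of 8 in ZsGreen-dim cells (medians 0.83 and 0.72), and all 3 glia genes and all 3 genes of interstitial cells of Cajal were lower in both. Of 6 mesothelium genes, 1 was higher in Sca1+ than in Sca1- ZsGreen-negative cells, with a median of 0.09, and their mean log2 signal was 8.90 ± 0.26 in ZsGreen-high, 9.10 ± 0.15 in ZsGreen-dim, 9.69 ± 0.05 in Sca1+ ZsGreen-negative and 9.48 ± 0.15 in Sca1- ZsGreen-negative cells. The part of these cells in the Aldh1a2 difference was not tested.

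Aldh1a1, a retinaldehyde dehydrogenase of many adult tissues, had 16391, 20863, 15192 and 15029 in ZsGreen-high cells and 12330, 12049, 13021 and 14117 in ZsGreen-dim cells. It had 18071, 9571, 8818 and 10940 in Sca1+ ZsGreen-negative cells and 19169, 13086, 12885 and 12166 in Sca1- ZsGreen-negative cells. Both ZsGreen-negative arrays of mouse 1 were far above those of the other mice. The ZsGreen-high arrays lay above the ZsGreen-dim arrays without overlap (0.38 ± 0.20, adjusted p = 0.353), and the other populations overlapped. Aldh1a1 averaged 16869 ± 2731 in ZsGreen-high and 11850 ± 4239 in Sca1+ ZsGreen-negative cells (SD, n = 4 each), a log2 difference of 0.56 ± 0.20 (1.47-fold, adjusted p = 0.0423, higher in 3 of 4 mice). That call was lost without mouse 2 (0.37, adjusted p = 0.334), mouse 3 (adjusted p = 0.170) or mouse 4 (adjusted p = 0.131), and held in 16 of 31 alternatives; in the F test over the 4 populations the gene did not pass (adjusted p = 0.161). Its close relative Aldh1a7 has a probe set of its own, with 260 to 418 in ZsGreen-high, 326 to 837 in ZsGreen-dim, 809 to 1463 in Sca1+ ZsGreen-negative and 1157 to 2064 in Sca1- ZsGreen-negative cells. Whether the Aldh1a1 probe set also binds Aldh1a7 transcripts was not tested.

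Aldh1a3, the remaining enzyme of the family, had 1644, 1376, 1255 and 1425 in ZsGreen-high cells and 2279, 1640, 1739 and 1803 in ZsGreen-dim cells. It had 1605, 1580, 1342 and 1582 in Sca1+ ZsGreen-negative cells and 1540, 1303, 751 and 1309 in Sca1- ZsGreen-negative cells, on the brightest of its 3 probe sets. The ZsGreen-dim arrays lay above all Sca1- arrays. The means were 1865 ± 284 in ZsGreen-dim and 1226 ± 335 in Sca1- cells (SD, n = 4 each), a log2 difference of 0.64 ± 0.18 (1.56-fold, adjusted p = 0.0248, higher in 4 of 4 mice). The call was lost without mouse 2 (0.75, adjusted p = 0.110), mouse 4 (adjusted p = 0.122) or the ZsGreen-dim array of mouse 1 (adjusted p = 0.0885), and in the fit to only the 8 arrays compared (adjusted p = 0.105). With every probe set tested on its own, over 45037, the other 2 probe sets of Aldh1a3 gave 0.94 ± 0.38 (adjusted p = 0.126) and 0.46 ± 0.15 (adjusted p = 0.0614) for the same comparison.

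The binding proteins gave no calls. Crabp1 was at or below the highest nonspecific control on all 16 arrays, with 148 to 180 in ZsGreen-high, 173 to 189 in ZsGreen-dim, 164 to 222 in Sca1+ ZsGreen-negative and 171 to 207 in Sca1- ZsGreen-negative cells, so no level can be set against another. Crabp2 was above that control on all 16 arrays but dim, with 421 to 590 in ZsGreen-high, 490 to 543 in ZsGreen-dim, 461 to 560 in Sca1+ ZsGreen-negative and 353 to 585 in Sca1- ZsGreen-negative cells. Its 4 populations overlapped and the F test gave an adjusted p of 0.515.

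**Figure D2:**
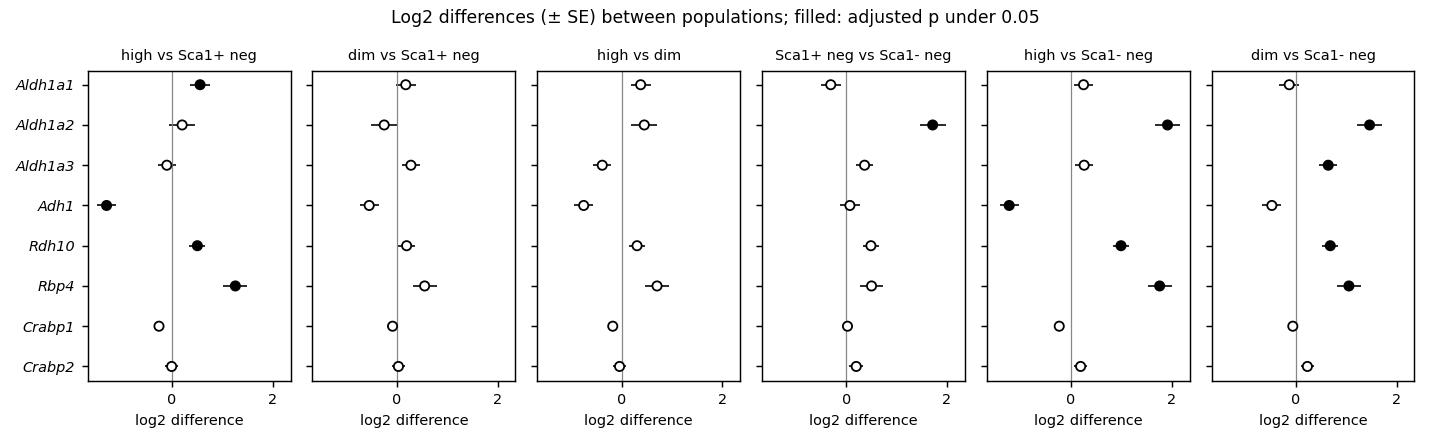
Log2 difference (± SE) of each retinoid gene in the 6 comparisons between populations; filled points passed an adjusted p of 0.05 over 17097 genes. Rbp4 and Adh1 lie on opposite sides of 0 in ZsGreen-high cells against either ZsGreen-negative population (1.26 and -1.30 against Sca1+, 1.76 and -1.23 against Sca1-), and Aldh1a2 lies to the right of 0 in the 3 comparisons with Sca1- cells.

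Over the 16 arrays, log2 signals of Aldh1a2, Rdh10 and Rbp4 ran together, with r = 0.80 for Aldh1a2 and Rdh10, 0.77 for Aldh1a2 and Rbp4, and 0.83 for Rdh10 and Rbp4. Adh1 ran against Rbp4 (r = -0.79) and Rdh10 (r = -0.76), and Aldh1a1 and Aldh1a2 were little related (r = 0.18). These are descriptions over arrays that share populations, mice and the change in epithelial signal. Among 10522 genes outside the 9, the signals most like those of Aldh1a2 over the 16 arrays were those of Srpx (r = 0.95), Scara3 (r = 0.94) and Adamts4 (r = 0.94). For Rbp4 they were Bdkrb2, a bradykinin receptor (r = 0.98), Sema3f, a semaphorin (r = 0.97), and Agt, angiotensinogen (r = 0.95). For Rdh10 they were Acot10 (r = 0.96), Stx11 (r = 0.94) and Arrdc3 (r = 0.94). For Adh1 they were Prss8, an epithelial serine protease (r = 0.99), Degs2 (r = 0.99) and Acp5 (r = 0.99).

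The epithelial gene mean moved with several of these genes. Over the 16 arrays it correlated with Adh1 at r = 0.978 (rho = 0.962), at r = 0.951 without the 2 arrays farthest from the median, and at r = 0.918 when each population's own mean was taken off. For Rbp4 it correlated at r = -0.754 (rho = -0.809), -0.791 without the 2 farthest arrays and -0.034 within populations. Rdh10 gave r = -0.761 (-0.502 within populations), Aldh1a1 r = -0.640 (-0.541 within populations) and Aldh1a2 r = -0.547 (-0.443 within populations). With the epithelial mean as a covariate, the Adh1 difference between ZsGreen-high and Sca1+ ZsGreen-negative cells came to -0.21 (adjusted p = 0.82), that of Rbp4 to 1.21 (adjusted p = 0.441), that of Rdh10 to 0.0029 (adjusted p = 0.998) and that of Aldh1a1 to -0.11 (adjusted p = 0.975). In the same fit the Aldh1a2 difference between Sca1+ and Sca1- ZsGreen-negative cells, and that between ZsGreen-dim and Sca1- cells, kept their calls. In ZsGreen-dim against Sca1- cells Rbp4 also kept its call (1.04, adjusted p = 0.0263). Rdh10 (0.53, adjusted p = 0.0585) and Aldh1a3 (0.47, adjusted p = 0.123) lost theirs there. The calls of ZsGreen-high cells against Sca1- cells were lost: Aldh1a2 had 1.20 (adjusted p = 0.214), Rbp4 1.71 (adjusted p = 0.0833), Rdh10 0.49 (adjusted p = 0.469) and Adh1 -0.13 (adjusted p = 0.82). The covariate nearly separates the ZsGreen-high arrays from the others, so in that fit it and the population can hardly be told apart.

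**Figure D3:**
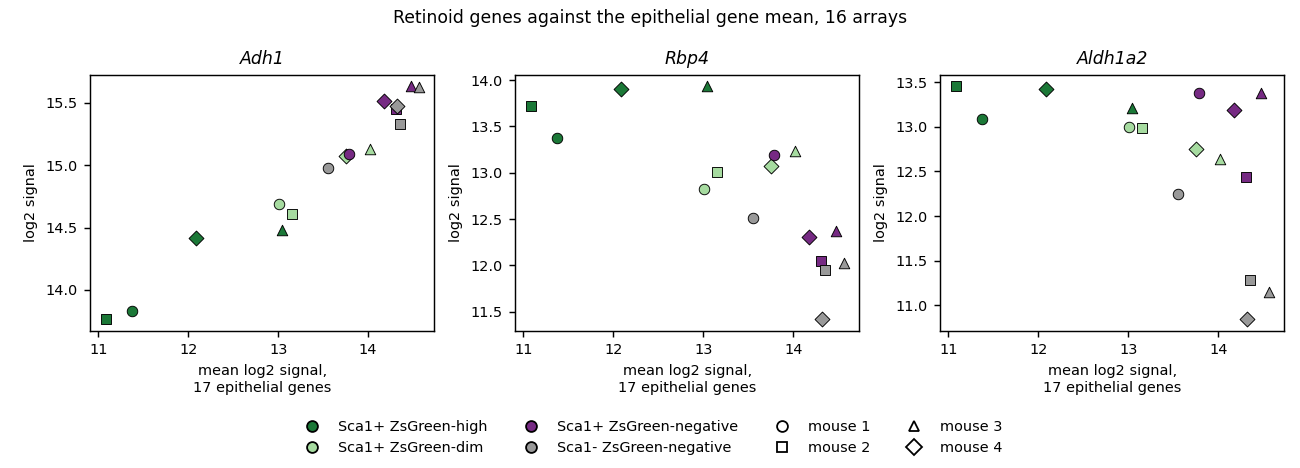
Log2 signal of Adh1, Rbp4 and Aldh1a2 (vertical axes) against the mean over 17 colon epithelium genes, also as log2 signal (horizontal axes) on the 16 arrays; colour gives the population and shape the mouse. Adh1 climbs with the epithelial mean across all arrays (r = 0.978), while the Sca1- arrays lie below Sca1+ arrays of like epithelial mean for Aldh1a2.

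Of 39 further genes of retinoid metabolism and response, 36 were measured. In ZsGreen-high against Sca1+ ZsGreen-negative cells 4 were higher and 6 lower (median log2 difference -0.07), and against Sca1- cells 4 were higher and 9 lower (median -0.05). In ZsGreen-dim against Sca1- cells 3 were higher and 1 lower, where 7.96% of all genes were higher and 5.89% lower. The counts were 0 higher and 1 lower in ZsGreen-dim against Sca1+ ZsGreen-negative cells (1.51% of all genes called). They were 1 higher and 0 lower between the ZsGreen-negative populations (2.45% called), and 0 in ZsGreen-high against ZsGreen-dim cells (1.42% called). The ZsGreen-high counts against Sca1+ and Sca1- ZsGreen-negative cells stand beside 30.9% and 35.9% of all genes called, shares near those of the list. Of all genes 17.0% were higher and 13.9% lower against Sca1+ ZsGreen-negative cells, and 19.2% and 16.7% against Sca1- cells. In both, the list's share of higher genes was below that of all genes and its share of lower genes above it. In ZsGreen-high cells against either population the 4 higher genes were the receptor gene Rarg and the 3 listed as retinoid response genes. Between the ZsGreen-negative populations the higher gene was Cyp1b1.

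Cyp1b1, a cytochrome P450 that can oxidize retinol and retinal besides steroids, had 355, 371, 378 and 344 in ZsGreen-high cells and 793, 466, 416 and 396 in ZsGreen-dim cells. It had 1082, 1586, 1663 and 1872 in Sca1+ ZsGreen-negative cells and 788, 436, 562 and 509 in Sca1- ZsGreen-negative cells. The Sca1+ ZsGreen-negative arrays lay above all others. These are signals of the brightest of 3 probe sets, and the others were at or below the highest nonspecific control on every array. The log2 difference was -2.07 ± 0.22 in ZsGreen-high against Sca1+ ZsGreen-negative cells (adjusted p = 0.000114), -1.61 ± 0.22 in ZsGreen-dim against the same cells (adjusted p = 0.00288) and 1.44 ± 0.22 in Sca1+ against Sca1- ZsGreen-negative cells (adjusted p = 0.00156). Without mouse 2 the last 2 of these were not called (adjusted p = 0.146 and 0.0668), nor was that of ZsGreen-dim cells without mouse 3 (adjusted p = 0.0804), nor either without mouse 4 (adjusted p = 0.142 and 0.0607). Reporter-high cells were also lower than Sca1- cells by -0.63 ± 0.22 (adjusted p = 0.036), a call that 12 of 31 alternatives lost, among them leaving out mouse 2 (adjusted p = 0.0763).

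Rarg, the retinoic acid receptor gamma gene, had 3540, 3276, 2908 and 3198 in ZsGreen-high cells and 2540, 2539, 2275 and 2064 in ZsGreen-dim cells. It had 1938, 1780, 1562 and 1402 in Sca1+ ZsGreen-negative cells and 1897, 1072, 1469 and 1296 in Sca1- ZsGreen-negative cells. Both ZsGreen-positive populations lay above both ZsGreen-negative ones on every array. Reporter-high cells were higher by 0.96 ± 0.15 than Sca1+ ZsGreen-negative cells (adjusted p = 0.000386) and by 1.20 ± 0.15 than Sca1- cells (adjusted p = 4.07e-05), and ZsGreen-dim cells were higher than Sca1- cells by 0.74 ± 0.15 (adjusted p = 0.00402; 0.0790 without mouse 2). Of the other receptor genes measured, Rxrg was lower in ZsGreen-high than in Sca1- cells by -0.38 ± 0.12 (adjusted p = 0.0208), a call lost without mouse 1 (adjusted p = 0.136) or mouse 2 (adjusted p = 0.0928).

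The list of response genes held only 3. All 3 were higher in ZsGreen-high cells than in either ZsGreen-negative population, where 17.0% of all genes were higher against Sca1+ and 19.2% against Sca1- cells. In the same 2 comparisons 0 of 15 measured genes of retinal synthesis, 0 of 10 of storage and binding and 0 of 3 of degradation were higher. Each gene was listed under 1 role only, although genes of these other roles can respond to retinoic acid too. The count of response genes thus depends on how the roles were assigned. Among the genes of the other roles, Cyp26b1, Dhrs3, Lrat and Stra6 did not pass the F test over the 4 populations (adjusted p = 0.109, 0.289, 0.143 and 0.617). Neither did Cyp26a1, which was near array background (adjusted p = 0.860). Tgm2, a transglutaminase induced by retinoic acid in many cells, had 21371, 20726, 16674 and 21164 in ZsGreen-high cells and 20397, 17958, 14867 and 16629 in ZsGreen-dim cells. It had 14969, 7714, 9131 and 8975 in Sca1+ ZsGreen-negative cells and 12821, 6343, 6694 and 5055 in Sca1- ZsGreen-negative cells. The difference was 1.01 ± 0.24 in ZsGreen-high against Sca1+ ZsGreen-negative cells (adjusted p = 0.00556; 0.0812 without mouse 2), 1.46 ± 0.24 against Sca1- cells (adjusted p = 0.000316), and 1.26 ± 0.24 in ZsGreen-dim against Sca1- cells (adjusted p = 0.00339; 0.0673 without mouse 2 and 0.0579 without mouse 4).
Rarres2, which encodes the chemoattractant chemerin, showed the same order of means on the brightest of its 3 probe sets. It was higher by 0.94 ± 0.23 in ZsGreen-high against Sca1+ ZsGreen-negative cells (adjusted p = 0.00573; 0.0786 without mouse 2 and 0.0595 without mouse 4), by 1.41 ± 0.23 against Sca1- cells (adjusted p = 0.000252) and by 1.23 ± 0.23 in ZsGreen-dim against Sca1- cells (adjusted p = 0.00268; 0.0687 without mouse 2). The next brightest probe set had that order too. The dimmest differed less, with means of 1830 in ZsGreen-high, 1695 in ZsGreen-dim, 1513 in Sca1+ ZsGreen-negative and 1555 in Sca1- ZsGreen-negative cells. Rarres1 was higher in ZsGreen-high than in Sca1+ ZsGreen-negative cells by 0.67 ± 0.17 (adjusted p = 0.00693; 0.0650 without mouse 2 and 0.0536 without mouse 4), but only 1 of the 4 Sca1+ ZsGreen-negative arrays was above array background. It averaged 484 in ZsGreen-high and 283 in Sca1- cells, where all 4 arrays were at array background, and was at least 1.36-fold higher (adjusted p = 0.00194).

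Several genes that fell in ZsGreen-high cells fell alongside the epithelial list. Rdh16, a retinol dehydrogenase, had 642, 575, 905 and 510 in ZsGreen-high cells, 819, 830, 1667 and 1131 in ZsGreen-dim cells, 1337, 2113, 2667 and 1303 in Sca1+ ZsGreen-negative cells and 1216, 2164, 3531 and 3128 in Sca1- ZsGreen-negative cells. It was lower by -1.46 ± 0.33 in ZsGreen-high against Sca1+ ZsGreen-negative cells (adjusted p = 0.00408; 0.0630 without mouse 2), by -1.85 ± 0.33 against Sca1- cells (adjusted p = 0.000555) and by -1.13 ± 0.33 in ZsGreen-dim against Sca1- cells (adjusted p = 0.0363; 0.239 without mouse 2), and 12 of 31 alternatives lost the last of these calls. Ttr, transthyretin, which carries Rbp4 in plasma, had 1021, 1048, 1260 and 1187 in ZsGreen-high cells and 1722, 2648, 3632 and 2974 in Sca1+ ZsGreen-negative cells, a difference of -1.24 ± 0.24 (adjusted p = 0.00156). Against Sca1- cells the Ttr difference was -0.94 ± 0.24 (adjusted p = 0.00685), a call lost without mouse 2 (adjusted p = 0.0619) or mouse 4 (adjusted p = 0.0510).
Bco2, a carotenoid-cleaving enzyme, was lower by -0.86 ± 0.15 in ZsGreen-high against Sca1+ ZsGreen-negative cells (adjusted p = 0.000715) and by -0.76 ± 0.15 against Sca1- cells (adjusted p = 0.000985). Fabp5, a lipid-binding protein that also binds retinoic acid, was lower in ZsGreen-high than in Sca1- cells by -0.57 ± 0.17 (adjusted p = 0.0143), a call lost without mouse 1 (-0.30, adjusted p = 0.117) or mouse 2 (adjusted p = 0.100). Adh4 was called lower in ZsGreen-high than in Sca1- cells but was at array background on all 16 arrays, so no fold is given. Only 10 of 30 alternatives kept the call. Of the others, 19 kept the direction, among them leaving out mouse 2 (adjusted p = 0.266), and 1 turned.
Over the 16 arrays the epithelial mean correlated with Bco2 at r = 0.926, Rdh16 at 0.886, Ttr at 0.856 and Cyp1b1 at 0.538, and with Rarg at r = -0.876, Rarres2 at -0.800 and Tgm2 at -0.792. Within populations the values were 0.747 for Bco2, 0.714 for Rdh16 and 0.702 for Ttr, but -0.269 for Cyp1b1. They were -0.572 for Rarg, -0.695 for Rarres2 and -0.634 for Tgm2. With the epithelial mean as a covariate, none of the calls of ZsGreen-high cells against either ZsGreen-negative population among the 11 further genes named by rule remained, and of all genes 1 remained against Sca1+ and 233 against Sca1- ZsGreen-negative cells. Some differences in that fit were about as large or larger: Cyp1b1 had -2.44 against Sca1+ ZsGreen-negative cells (adjusted p = 0.0989) and -1.0 against Sca1- cells (adjusted p = 0.270), Fabp5 -0.53 (adjusted p = 0.516) and Rxrg -0.42 (adjusted p = 0.445) against Sca1- cells.

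**Figure D4:**
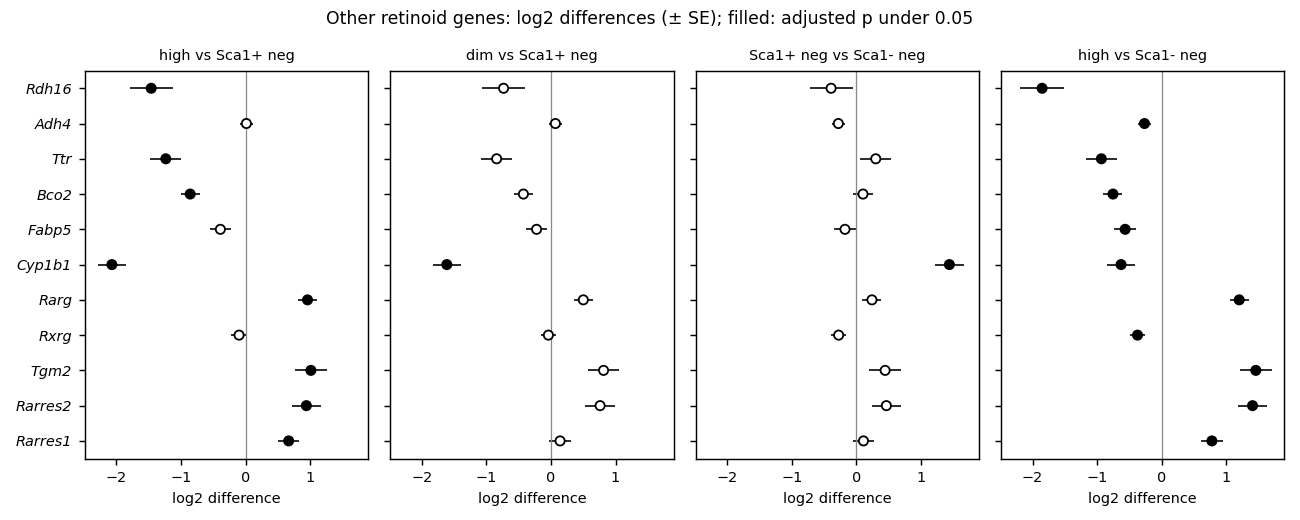
Log2 difference (± SE) of the 11 further retinoid genes named by rule, in 4 of the 6 comparisons; filled points passed an adjusted p of 0.05. Rarg, Tgm2, Rarres2 and Rarres1 lie to the right of 0 in ZsGreen-high cells against either ZsGreen-negative population, while Cyp1b1 lies lowest in ZsGreen-high cells against Sca1+ ZsGreen-negative cells at -2.07.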

How the data were processed

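Fibroblasts from the colons of 4 mice were sorted into 4 populations and each of the 16 samples was hybridized to 1 Affymetrix array, per the labels' protocols. Affymetrix Expression Console 1.1 is named in the submitters' processing notes, while the summary method, the normalization between arrays and the build are not stated. What the authors deposited is a score per array for 45141 probe sets, each brought to mean 0 and SD 1 across its 16 values. The scores fit logs of whole numbers, and the signals were recovered for all 45141 probe sets by a search for whole numbers within 0.0001, giving back the deposited scores to within 1e-09, using numba 0.67.0, numpy 2.4.6 and pandas 2.3.3 in Python 3.11.15. On simulated data 1000 of 1000 probe sets were recovered. Signals ran from 58 to 155937, and the scanner's own intensities are not used here.

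Of the probe sets, 28898 carried 1 gene symbol in the platform's table, 551 several and 15588 none, and 104 were controls. For the 7180 of 17097 genes with more than 1, the probe set of highest mean signal was used. Array background was the highest nonspecific control of an array, 234 to 488. Differences were tested on log2 signals with limma 3.58.1 in R 4.3.3 (two-sided, 1 mean per population, all 16 arrays, no block), with Benjamini-Hochberg adjustment and a threshold of 0.05. On simulated data of ZsGreen-high against Sca1+ ZsGreen-negative cells, limma over 17097 genes called 91 of 100 genes changed by 1 log2 unit and 99 of 100 changed by 2, with 6 false calls. A difference given as "at least" sets the control signal in place of a signal at background.

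By the labels' mouse numbers the populations are paired, although the arrays labelled mouse 2 cannot all be from 1 animal. Deviations from population means had a mean correlation of 0.241 for arrays sharing a mouse and of -0.140 for other pairs, with 0.466, -0.059, 0.447 and 0.109 for mice 1 to 4. Taking off the population means itself lowers the correlation of the other pairs, so their value is not a neutral reference. Mouse as a block, quantile normalization, scaling to the hybridization controls, other probe set rules, filters and left-out arrays were tried as alternatives. Sex as a covariate and female arrays alone were added after the data were seen. All 9 genes and every further retinoid gene called in at least 1 comparison, up to the 3 with the largest change for each role, were named, with the 3 genes most like each gene that passed the F test. The genes and lists were chosen with earlier results of these data known. Figures were drawn with matplotlib 3.10.9.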

Additional observations from a re-analysis of the deposited data

Results flagged for a closer look

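Among 40 sets of 4 arrays (10 probe sets in 4 populations), 2 held an array set apart from the other 3 by Dixon's test, where chance gives about 1 in 20. The Aldh1a1 signal of the Sca1- ZsGreen-negative array of mouse 1 was 19169, against 12166 to 13086 on the other 3 arrays (Dixon ratio 0.840). The Aldh1a3 signal of the Sca1+ ZsGreen-negative array of mouse 3 was 1342, against 1580 to 1605 on the others (Dixon ratio 0.912). The causes were not tested.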

How the results depend on the processing

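The 13 called differences of the 8 retinoid genes were recomputed under 31 alternatives. Of these 403 values, 359 kept the direction and the call, 43 kept only the direction and 1 turned. Of 774 values for the further genes, 682 kept both, 87 only the direction and 5 turned. The turned value of the 8 genes was Aldh1a1 in ZsGreen-high against Sca1+ ZsGreen-negative cells with the epithelial covariate (-0.11). Among differences not called as reported, Adh1 in ZsGreen-high against ZsGreen-dim cells turned with the covariate (0.0041), and Crabp1, at background throughout, with scaling to the hybridization controls in ZsGreen-high against Sca1+ (0.12) and Sca1- (0.16) ZsGreen-negative cells. For the further genes they came from the covariate in ZsGreen-high against Sca1+ ZsGreen-negative cells for Rdh16 (0.052) and Rarres2 (-0.051) and against Sca1- cells for Ttr (0.14), and from the scaling against Sca1- cells for Adh4 (0.13) and Rxrg (0.023). The causes were not tested.

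The number of the 8 genes called moved as follows. With mouse as a replicate block it came to 1 (Adh1), against 0, in ZsGreen-dim against Sca1+ ZsGreen-negative and in ZsGreen-high against ZsGreen-dim cells, and Adh1 was also called in ZsGreen-dim against Sca1- cells. Over all genes the block gave 2386, 1280 and 3769 calls in these 3 comparisons, against 258, 242 and 2368 as reported. It lost no call of the 8 genes or of the 11 further genes named by rule. Sex as a covariate gave the same counts of 1, and female arrays alone gave 3 and 1. With only the 2 populations compared it was 2 in ZsGreen-high against Sca1+ ZsGreen-negative, 1 in ZsGreen-high against ZsGreen-dim and 0 between the ZsGreen-negative populations. The epithelial covariate gave 0 in ZsGreen-high against either ZsGreen-negative population, 2 in ZsGreen-dim against Sca1- cells and 1 in the F test. Over all genes it left 1 call in ZsGreen-high against Sca1+ and 233 against Sca1- ZsGreen-negative cells, and 1375 in ZsGreen-dim against Sca1- cells, where there were 5276, 6143 and 2368 as reported. Scaling to the hybridization controls gave 4 in ZsGreen-high against ZsGreen-dim and 7 in ZsGreen-high against Sca1- cells. That scaling put the median of all genes at 0.38, 0.31 and 0.39 in ZsGreen-high against Sca1+ ZsGreen-negative, ZsGreen-dim and Sca1- cells, where 91.1%, 94.0% and 90.2% of calls were then higher, against 55.0%, 34.3% and 53.4% as reported. In ZsGreen-high against Sca1- cells it also ended the calls of Ttr (adjusted p = 0.0921), Bco2 (0.116), Fabp5 (0.462) and Cyp1b1 (0.329).

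Leaving out a mouse or an array gave 2 to 4 genes in ZsGreen-high against Sca1+ ZsGreen-negative cells, with 2 without mouse 2, without the ZsGreen-high array of mouse 1 or 2, or without the Sca1+ ZsGreen-negative array of mouse 2. It gave 1 to 5 in ZsGreen-dim against Sca1- cells, with 1 without mouse 2 or mouse 4, and 4 to 5 in ZsGreen-high against Sca1- cells and in the F test. It gave 0 to 1 in the other 3 comparisons. Dim genes such as Crabp1 and Crabp2 are limited by signal over background.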
